A study of Mus musculus with 12 samples.

Results

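Acylcarnitine and fatty acid β-oxidation genes were followed in 1-month-old *Snx14*-KO and WT mice. The set held 37 of the 55536 genes in the count files, chosen by gene name for their place in the pathway and grouped into 7 steps: the carnitine shuttle (7 genes), the mitochondrial acyl-CoA dehydrogenases (9), hydration to thiolysis in mitochondria (6), the mitochondrial isomerases and reductase (3), the peroxisomal steps (6), electron transfer (3) and regulators (3). All 37 passed the filter on low counts in every comparison.

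Long-chain fatty acids cannot cross the inner mitochondrial membrane as CoA esters. Carnitine palmitoyltransferase 1 (CPT1) turns them into acylcarnitines on the outer membrane, a carrier in the inner membrane exchanges these for carnitine, CPT2 restores the CoA ester, and repeated rounds of dehydrogenation, hydration, oxidation and thiolysis shorten the chain. Peroxisomes shorten very long and branched chains by a parallel set of enzymes. In brain the pathway is attributed mostly to astrocytes, since neurons oxidise few fatty acids.

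RNA-Seq was performed on cerebella (CB) and cerebral cortices (CX), with 3 libraries in each of 4 groups: WT cerebellum, *Snx14*-KO cerebellum, WT cortex and *Snx14*-KO cortex. *Snx14* encodes a sorting nexin of the endoplasmic reticulum that takes part in lipid droplet formation. *Snx14*-KO mice carried a homozygous germline frameshift deletion of a single base made with Cas9 in C57BL/6J embryos, and the labels name no other allele or agent. Every cell type of the mouse therefore carried the mutation, the labels describe each tissue as a mix of cells, and the model rests on a single mutant allele. Whether the sequenced WT mice were littermates is not given in the sources used here. The titles give the same mouse numbers in both tissues. The study set cerebellum against cortex to look for effects of the mutation that depend on tissue. It also profiled lipid metabolites, acylcarnitines among them, which were not analysed here.

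Libraries held 16672589 to 19887427 counts on genes. *Snx14* was 83.1% lower in *Snx14*-KO than in WT cerebella and 85.6% lower in *Snx14*-KO than in WT cortices, and no KO library overlapped a WT library. It was the one gene called by edgeR in each tissue (edgeR quasi-likelihood test, adjusted *P* = 1.69e-06 in cerebellum and 3.19e-08 in cortex), or 0.00549% of 18201 genes in cerebellum and 0.00548% of 18255 in cortex. DESeq2, the tool of the study, called 216 genes in cerebellum and 15 in cortex, and the study too reported more DEGs than *Snx14* in both. A gene was called at a Benjamini-Hochberg adjusted *P* under 0.05 over all genes tested. Cerebellar granule cell markers summed to 2228 to 2986 TPM (transcripts scaled to exon length and library) in cerebella and 58.8 to 73.4 in cortices, and forebrain excitatory neuron markers summed to 173 to 254 TPM in cerebella and 1188 to 1360 in cortices, as the tissue labels say. Choroid plexus epithelium markers were uneven: 163, 7003 and 20198 TPM in WT cerebella 1, 2 and 3, 2627 to 8352 in *Snx14*-KO cerebella and 13.8 to 346 in cortices.

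*Etfa*, *Etfb*, *Acat1* and *Acadl* were the 4 most abundant transcripts of the set by mean level in both WT tissues. TPM, a level corrected for exon length, was computed over all genes, so that genes could be compared with each other. In WT cerebella the highest mean levels were 135 ± 8.18 TPM (SD, n = 3) for *Etfa* and 113 ± 8.67 for *Etfb*, the subunits of the flavoprotein that takes electrons from all acyl-CoA dehydrogenases. *Acat1*, the mitochondrial acetoacetyl-CoA thiolase, followed at 108 ± 7.95 TPM, then *Acadl*, the long-chain dehydrogenase, at 96.0 ± 6.90 and *Acadvl*, the very-long-chain dehydrogenase, at 85.1 ± 7.21. In WT cortices the same scale was led by *Acat1* at 85.7 ± 6.45 TPM, *Etfb* at 66.2 ± 1.79, *Acadl* at 57.7 ± 8.38, *Etfa* at 56.9 ± 5.19 and the peroxisomal multifunctional enzyme *Hsd17b4* at 55.4 ± 2.33. Only the muscle isoform *Cpt1b* had a mean under 1 TPM, in cortex, where each library held 10 to 18 counts of it. In each WT tissue, 28 of the 36 pairs of neighbours in the order of levels had overlapping ranges, so that the order is coarse. Other genes share 58.2% of the exon bases of *Etfb* and 42.9% of those of *Acadvl*, so these levels can include reads of those genes. Over the 37 genes the mean levels summed to 1380 TPM in WT cerebella, 1372 in *Snx14*-KO cerebella, 957 in WT cortices and 950 in *Snx14*-KO cortices.

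**Figure D1:**
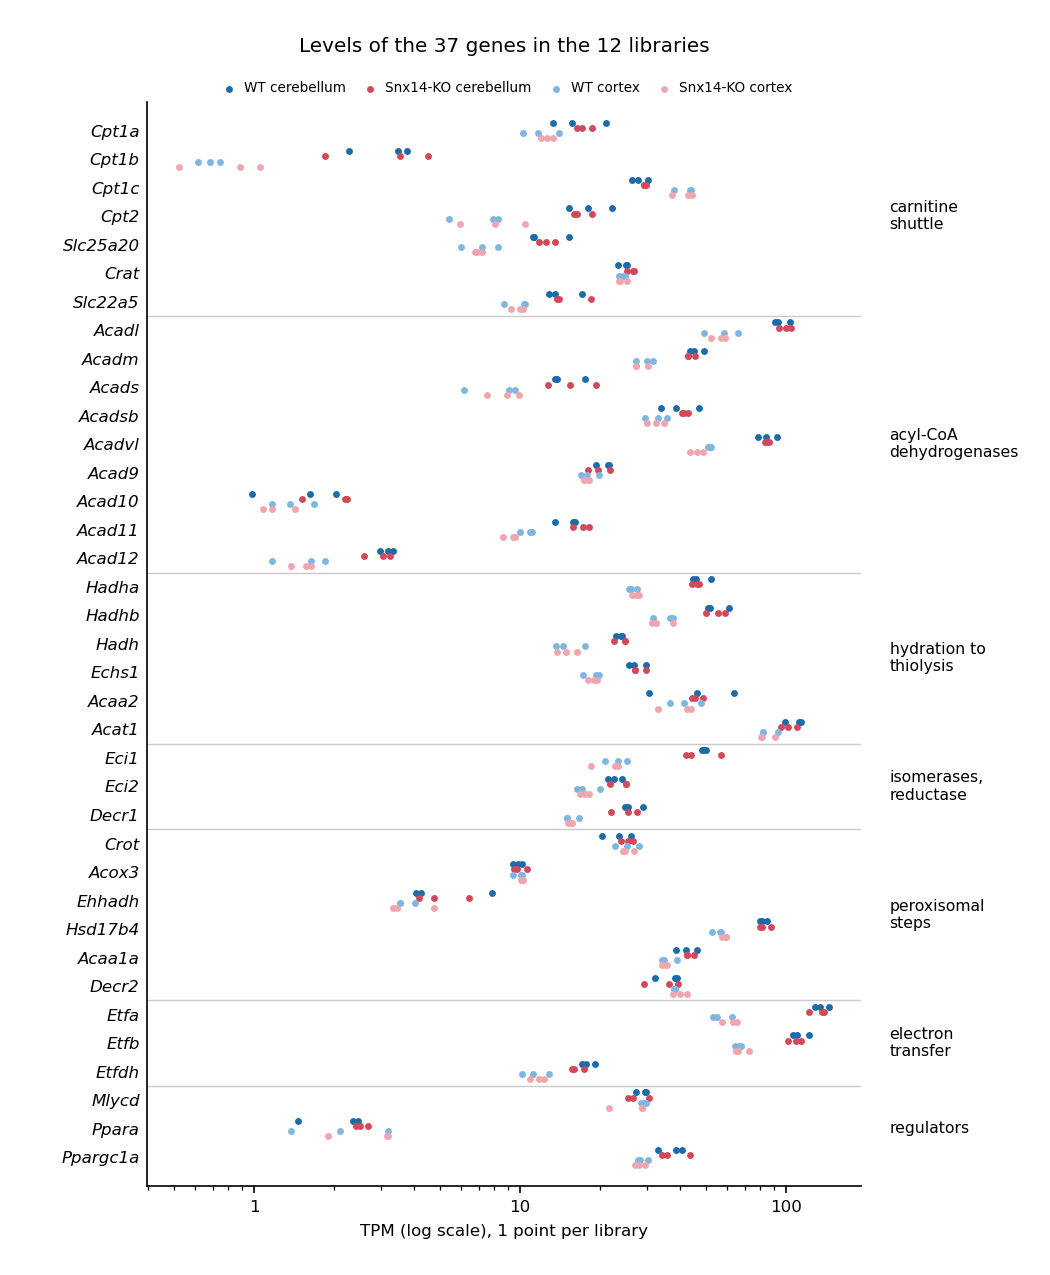
Level of each of the 37 genes in TPM (log axis), with 1 point per library and colours for the 4 groups of 3 libraries; grey lines part the 7 steps. The red and blue points of a tissue overlap for most genes, while many mitochondrial genes lie further right in cerebellum than in cortex, and *Cpt1c* lies further left.

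No change in the transcripts of the pathway was detectable in *Snx14*-KO cerebella with 3 mice per group. None of the 37 genes was called in cerebellum by edgeR, none had an unadjusted *P* below 0.05, where 8.15% of the whole table did, and none was called by DESeq2, which called 216 genes over the whole table. In no gene of the set were the KO and WT cerebella fully apart in TPM, where 11.5% of all genes tested were. The median log2 fold change over the 37 genes was 0.01, beside 0.00 over all genes tested, and 35 of 37 lay between −0.20 and 0.20. The exceptions were *Acad10* at 0.36 (95% interval −0.31 to 1.03) and *Ppara*, the fatty acid-sensing nuclear receptor, at 0.28 (−0.29 to 0.84), both of which were under 3 TPM.

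The precision was enough to bound most of these differences. In cerebellum the 95% interval lay wholly between −0.50 and 0.50, the size that the study asked of a DEG, for 32 of 37 genes, reaching to either side of the value by a median of 0.19 on the log2 scale. The intervals of *Cpt1b*, *Acad10*, *Acaa2*, *Ehhadh* and *Ppara* reached further. In cortex 30 of 37 intervals lay within that range, reaching to either side by a median of 0.21, and those of *Cpt1b*, *Cpt2*, *Acads*, *Acad10*, *Acad12*, *Ehhadh* and *Ppara* reached further.

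The carnitine shuttle was measured gene by gene. *Cpt1a*, the liver-type CPT1 that most tissues use (chr19:3322334-3385733, + strand, GRCm38), stood at 13.3, 15.7 and 21.0 TPM in WT cerebella and at 18.7, 16.4 and 17.0 in *Snx14*-KO cerebella. The KO values lay inside the WT range, and the log2 fold change was 0.06 (−0.25 to 0.37, adjusted *P* = 0.967). *Cpt2*, the inner membrane transferase, stood at 15.2, 17.9 and 22.1 TPM in WT and 16.3, 15.99 and 18.6 in *Snx14*-KO cerebella, again overlapping, with a log2 fold change of −0.12 (−0.45 to 0.21). *Slc25a20*, the carnitine-acylcarnitine carrier, differed by −0.003 (−0.30 to 0.29), and *Crat*, the acetyltransferase for short chains, by 0.09 (−0.08 to 0.25). *Cpt1c*, the isoform of neurons, which resides in the endoplasmic reticulum and has little transferase activity, differed by 0.06 (−0.10 to 0.22), and *Cpt1b* by 0.06 with a wide interval (−0.72 to 0.83). *Slc22a5*, which carries carnitine into cells, differed by 0.08 (−0.26 to 0.42).

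No step of the pathway held a called gene. Median log2 fold changes in cerebellum were 0.06 for the shuttle, 0.05 for the acyl-CoA dehydrogenases, −0.01 for hydration to thiolysis, −0.05 for the isomerases and reductase, 0.02 for the peroxisomal steps, −0.06 for electron transfer and 0.01 for the regulators. Electron transfer was the one step whose genes all had the same sign, with *Etfa* at −0.03, *Etfb* at −0.06 and *Etfdh*, the oxidoreductase that passes the electrons to ubiquinone, at −0.14 (−0.31 to 0.03), and none of them was called. *Ppargc1a*, a coactivator that drives mitochondrial gene expression, was at 0.01 (−0.23 to 0.25), and *Mlycd*, which removes the CPT1 inhibitor malonyl-CoA, was at −0.07 (−0.28 to 0.15).

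Markers of several cell types leaned to one side between the same cerebella. All 12 microglia and macrophage markers were higher in *Snx14*-KO, 7 of them at an unadjusted *P* under 0.05, and summed to 503, 560 and 1442 TPM in *Snx14*-KO cerebella 1, 2 and 3 against 433 to 544 in WT, so that *Snx14*-KO cerebellum 3 stood apart and *Snx14*-KO cerebellum 1 lay in the WT range. Meningeal fibroblast markers were higher in 11 of 11, with 9 at an unadjusted *P* under 0.05, and summed to 265 to 303 TPM against 95.2 to 208. Astrocyte and Bergmann glia markers were higher in 10 of 11, with 6 at an unadjusted *P* under 0.05, and summed to 6593 to 7565 TPM against 6263 to 6502, and all 6 granule cell markers were lower, 3 at an unadjusted *P* under 0.05, summing to 2228 to 2688 TPM against 2660 to 2986. All 6 Purkinje cell markers (1 at an unadjusted *P* under 0.05), all 10 oligodendrocyte markers and all 5 choroid plexus markers (none under it) also had values below 0, with overlapping summed levels. None of these markers was called by edgeR, which called *Snx14* alone in cerebellum, and no marker was at 0 counts throughout a group. DESeq2 called 216 genes in the same comparison, and whether any of these markers was among them is not given here. The part of the markers in the values of the 37 genes was not tested. In bulk tissue, fewer cells of a type and less RNA per cell cannot be told apart.

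The cortices held no called gene of the pathway either. None of the 37 passed in edgeR or in DESeq2, which left 6 of them without an adjusted *P* and called 15 genes over the whole table. The median log2 fold change was −0.02, beside 0.00 over all genes tested, and 33 of 37 genes lay between −0.20 and 0.20. Of the 18 genes grouped as mitochondrial enzymes 16 had values below 0, with a median of −0.04, where 9122 of 18255 genes tested lay below 0. Within the shuttle the log2 fold change was 0.07 (−0.16 to 0.30) for *Cpt1a*, −0.02 (−0.20 to 0.16) for *Cpt1c*, 0.17 (−0.32 to 0.66) for *Cpt2*, −0.06 (−0.38 to 0.27) for *Slc25a20*, −0.01 (−0.17 to 0.16) for *Crat* and 0.25 (−0.60 to 1.11) for *Cpt1b*. KO and WT cortices were fully apart for 3 of 37 genes, *Acadvl* and *Acad11* below and *Hsd17b4* above, where 9.1% of all genes tested were apart. Beside these values, 8 of 10 oligodendrocyte markers were lower at an unadjusted *P* under 0.05 by edgeR, where 4.5% of all genes tested fell under it. Their summed level was 3278 to 4596 TPM in *Snx14*-KO and 4664 to 4908 in WT. All 11 meningeal fibroblast markers were higher, 6 of them below that threshold (80.4, 214 and 74.0 TPM in *Snx14*-KO cortices 1, 2 and 3 against 57.9 to 92.3), where only *Snx14*-KO cortex 2 exceeded the WT range. All 4 choroid plexus markers tested had values below 0, 2 of them below the threshold (13.8 to 23.4 TPM against 32.1 to 346, with no overlap), and all 7 endothelial and mural markers had values above 0, 1 of them below it (112 to 142 TPM against 92.3 to 120). The part of these lists was not tested.

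**Figure D2:**
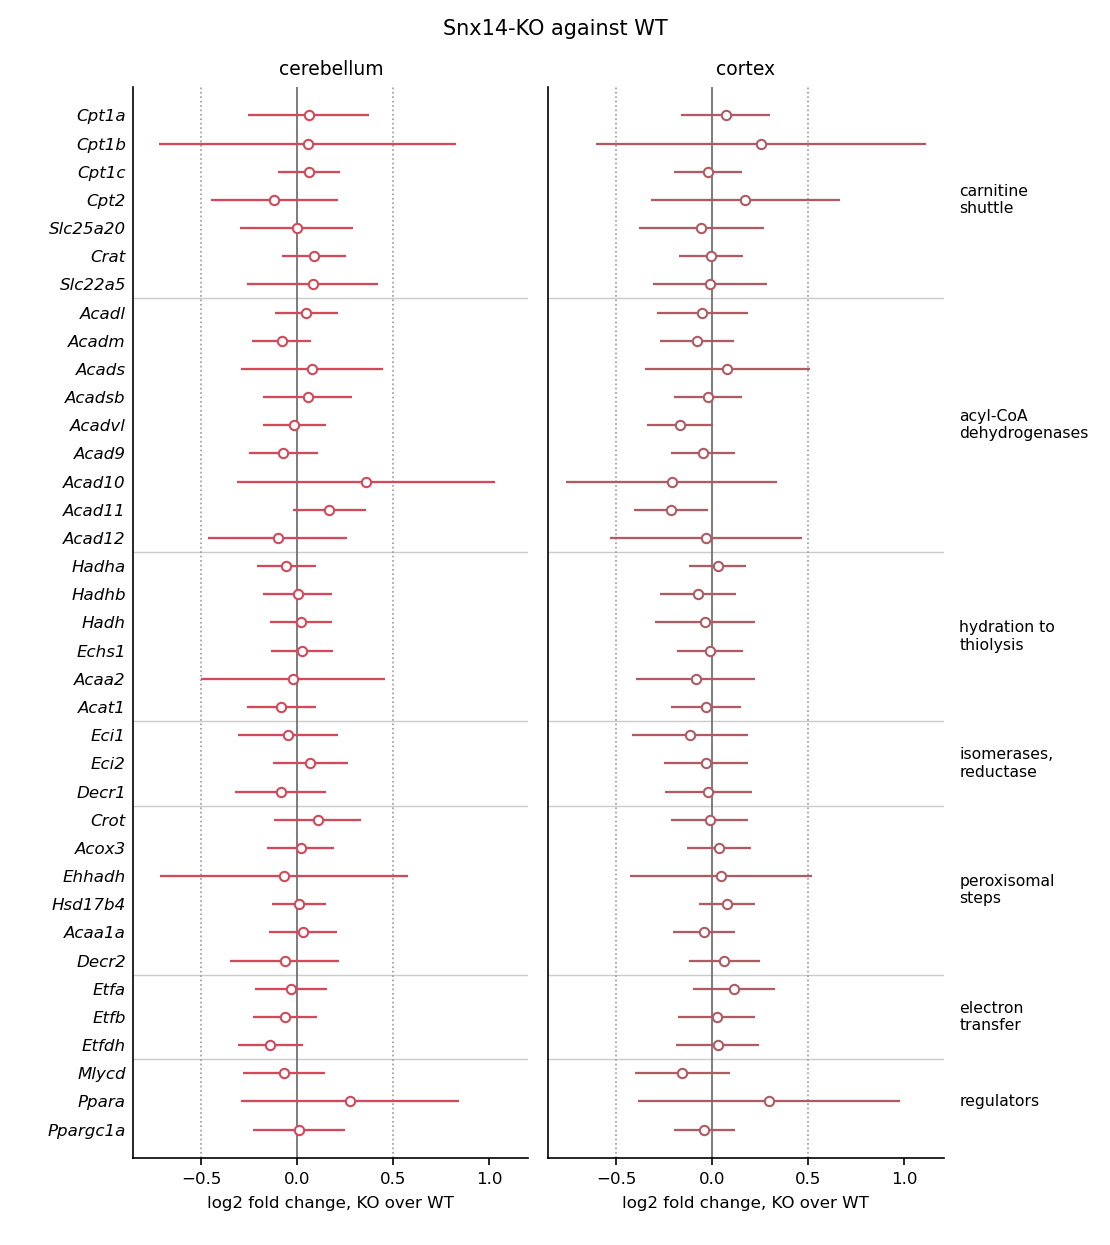
Log2 fold change of *Snx14*-KO over WT for each of the 37 genes in cerebellum (left) and cortex (right), with 95% intervals from edgeR over 3 against 3 libraries; open points were not called and dotted lines mark −0.50 and 0.50. Every point is open, and 32 intervals in cerebellum and 30 in cortex stay between the dotted lines.

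*Acad11*, which encodes an acyl-CoA dehydrogenase for long chains, is described because it had an unadjusted *P* under 0.05 in cortex and in the interaction (chr9:104063377-104127725, + strand). Its level was 13.6, 15.9 and 16.1 TPM in WT cerebella and 18.2, 15.8 and 17.3 in *Snx14*-KO cerebella. In cortices it was 10.9, 11.1 and 10.01 TPM in WT and 9.59, 8.64 and 9.45 in *Snx14*-KO. The groups overlapped in cerebellum, where the KO mean was higher, and were apart in cortex, where every KO library was lower. The log2 fold change was 0.17 (−0.02 to 0.36, unadjusted *P* = 0.0788 by edgeR) in cerebellum and −0.21 (−0.41 to −0.02, unadjusted *P* = 0.0327 by edgeR) in cortex, and in cortex 4.5% of the whole table fell below 0.05 before adjustment. The difference between these effects, tested as a genotype by tissue interaction in edgeR, was 0.37 (0.11 to 0.63, unadjusted *P* = 0.00821 by edgeR), and it did not pass adjustment over 19380 genes (adjusted *P* = 0.572). In that test 5.68% of the table fell below 0.05 before adjustment and 0.0% were called. *Acad11* was the 1 gene of 37 under that threshold, so the share in the set was no higher than in the table, and 0 of 37 were called by edgeR or by DESeq2. *Acad10* had a larger interaction value, 0.56, with a wider interval. The unadjusted *P* of *Acad11* in cortex was 0.0591 by DESeq2 and 0.0651 by edgeR with the replicate block, and without WT cortex 1, WT cortex 2 or KO cortex 2 it was 0.0578, 0.123 or 0.111 by edgeR. For the interaction the unadjusted *P* ran from 0.00584 to 0.0250 over the edgeR alternatives and was 0.00772 by DESeq2, with no call in any.

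The difference between the tissues was large by comparison. In WT mice 25 of 37 genes were called between cerebellum and cortex, 24 of them higher in cerebellum, that is 64.9% of the set, where 28.2% of all genes tested were called higher. The 1 gene called lower was *Cpt1c*, where 29.2% of all genes were called lower. In *Snx14*-KO mice, whose libraries are separate from these, 26 genes were called, 25 of them higher in cerebellum (67.6%), where 25.5% of all genes tested were called higher and 26.6% lower. The same 24 genes were called in both genotypes and in the same direction, which is 96.0% of the WT calls and 92.3% of the KO calls. *Acat1* was called in WT mice alone and *Acadsb* and *Acaa1a* in *Snx14*-KO mice alone; the interaction gave no call for any of the 3. The median log2 difference over the 37 genes was 0.48 in WT and 0.50 in *Snx14*-KO mice, beside 0.02 over all genes tested in each.

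**Figure D3:**
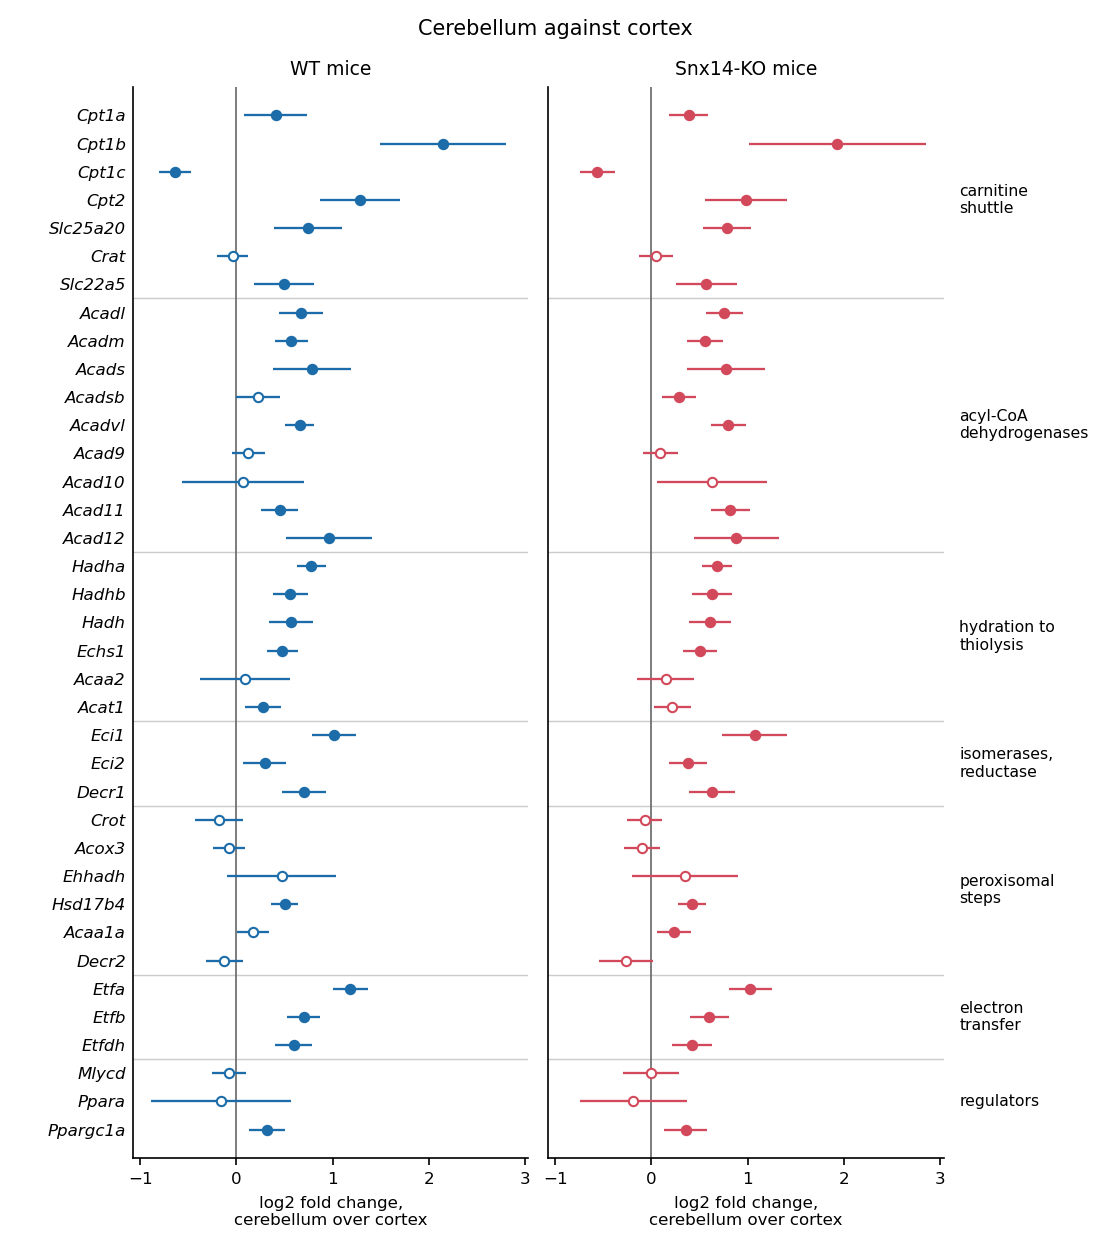
Log2 fold change of cerebellum over cortex for each of the 37 genes in WT mice (left, blue) and *Snx14*-KO mice (right, red), with 95% intervals from edgeR over 3 against 3 libraries; filled points were called. The mitochondrial steps and electron transfer lie to the right of 0, the peroxisomal steps lie around 0, and *Cpt1c* lies to the left in both panels.

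Sorted by step, 17 of the 24 genes called higher in WT cerebella were grouped as mitochondrial enzymes or electron transfer genes. A further 5 belonged to the carnitine shuttle, and *Hsd17b4* and *Ppargc1a* made up the rest. All 18 genes grouped as mitochondrial enzymes had a positive difference in WT mice and 14 were called, with a median of 0.56. The grouping followed gene lists. Among the 14, *Eci2* is also found in peroxisomes, and the location of *Acad11* was not checked. All 3 electron transfer genes were called, with a median of 0.70. Of the 6 peroxisomal genes only *Hsd17b4* was called in WT mice, and the median of the step was 0.05. Beside these counts, 28.2% of all genes tested were called higher and 29.2% lower, and the difference between the steps was not tested. Summed over its genes, electron transfer was 1.98-fold higher in TPM in WT cerebella than in WT cortices, the isomerases and reductase 1.74-fold, the dehydrogenases 1.52-fold, hydration to thiolysis 1.38-fold, the peroxisomal steps 1.18-fold and the shuttle 1.15-fold. In *Snx14*-KO mice these sums differed 1.82-fold, 1.77-fold, 1.62-fold, 1.38-fold, 1.16-fold and 1.16-fold, with the steps listed as for WT mice. The sum of the regulators differed 1.14-fold in WT and 1.19-fold in *Snx14*-KO mice. These sums are descriptions of the libraries and were not tested.

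Within the shuttle the CPT1 isoforms went in opposite directions. *Cpt1b* (chr15:89416405-89425863, − strand) was at 3.76, 2.27 and 3.49 TPM in WT cerebella and at 0.614, 0.744 and 0.681 in WT cortices. No library of a tissue overlapped the other tissue, and the difference was 2.15 ± 0.29 (SE) on the log2 scale (adjusted *P* = 1.10e-04), or 4.43-fold. That value rests on 41 to 70 counts per WT cerebellum, and 81.4% of its exon bases also belong to the readthrough gene *Gm44502*, whose reads cannot be told apart from those of *Cpt1b*. *Cpt1c* (chr7:44959372-44974851, − strand) was at 26.2, 27.8 and 30.2 TPM in WT cerebella and higher in WT cortices, at 44.1, 43.7 and 37.8, again with no overlap (log2 difference −0.64 ± 0.08, adjusted *P* = 4.14e-05). *Cpt1a* was 0.41 ± 0.15 higher in WT cerebella (adjusted *P* = 0.0360) with overlapping libraries, and this call was lost when the mice were paired (replicate block, adjusted *P* = 0.0627 by edgeR) and without any of WT cerebellum 2, WT cerebellum 3, WT cortex 2 or WT cortex 3 (0.0593 to 0.159). The log2 difference of *Cpt1a* was 0.40 with the replicate block and fell to 0.24 without WT cerebellum 3. *Cpt1c* made up 58.9% ± 3.14 (SD, n = 3) of the summed CPT1 level in WT cerebella, 58.7% ± 0.376 in *Snx14*-KO cerebella, 76.8% ± 1.53 in WT cortices and 75.4% ± 2.57 in *Snx14*-KO cortices, so that the libraries of the tissues did not overlap and those of the genotypes did.

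*Cpt2* had the next largest difference of the shuttle. It was at 8.29, 7.90 and 5.40 TPM in WT cortices, below all WT cerebella (15.2 to 22.1), with a log2 difference of 1.29 ± 0.19 (adjusted *P* = 1.73e-04). The ratio of *Cpt1a* to *Cpt2* was 0.899 ± 0.0451 in WT cerebella and 1.69 ± 0.207 in WT cortices, and 1.03 ± 0.114 and 1.63 ± 0.407 in the *Snx14*-KO tissues. *Slc25a20* was 0.74 ± 0.16 higher in WT cerebella and 0.79 ± 0.11 in *Snx14*-KO cerebella, while *Crat* was not called and overlapped between tissues, at 23.4 to 25.3 TPM in WT cerebella and 23.6 to 24.7 in WT cortices. *Slc22a5* was called at 0.49 ± 0.14 in WT (adjusted *P* = 0.0548 without WT cortex 2) and 0.57 ± 0.14 in *Snx14*-KO mice.

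The promoters of *Cpt1a* and *Cpt1c* are shown because these isoforms differ in the direction of their tissue difference. Windows of 250 bases before to 50 bases after the RefSeq start were taken from build GRCm38.p6 and were given for 30 of the 37 genes. The windows lie at chr19:3323051-3323350 (+ strand) for *Cpt1a* and chr7:44974802-44975101 (− strand) for *Cpt1c*, printed 5′ to 3′ on the strand of the gene. The RefSeq start of *Cpt1a* lies 967 bases downstream of the gene start given above, so that its window lies inside the annotated gene, and the starts of *Cpt1c* coincide. Capitals mark AGGTCA, the core element bound by nuclear receptors such as PPARα, or its reverse complement.
Cpt1a: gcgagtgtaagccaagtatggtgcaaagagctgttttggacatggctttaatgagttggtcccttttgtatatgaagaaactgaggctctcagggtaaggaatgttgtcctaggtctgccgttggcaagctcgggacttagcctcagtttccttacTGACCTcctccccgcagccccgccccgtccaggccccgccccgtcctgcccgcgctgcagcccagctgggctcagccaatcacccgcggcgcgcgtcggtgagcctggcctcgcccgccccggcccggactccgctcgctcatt
Cpt1c: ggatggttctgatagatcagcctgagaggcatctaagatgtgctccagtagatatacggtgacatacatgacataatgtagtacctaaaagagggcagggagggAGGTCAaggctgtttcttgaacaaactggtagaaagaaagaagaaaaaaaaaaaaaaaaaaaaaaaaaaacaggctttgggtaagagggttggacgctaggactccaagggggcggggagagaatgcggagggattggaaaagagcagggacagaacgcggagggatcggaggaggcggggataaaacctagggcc
Each window held 1 such element, beginning 94 bases before the RefSeq start of *Cpt1a* on the opposite strand and 146 bases before that of *Cpt1c* on the same strand. The *Cpt1a* window was 62.3% G or C and that of *Cpt1c* 47.3%. Searched on both strands, AGGTCA was in 5 of the 30 windows (*Acadm*, *Acadvl*, *Cpt1a*, *Cpt1c* and *Echs1*), or 16.7%, and in 16.3% of all 32851 promoter windows of that length. A pair of these elements in the same direction, 1 base apart, was in none of the 30 windows and in 0.0396% of all windows, and TCAAGGTCA, which holds the element, was in none and in 0.423%. The GC box GGGCGG was in 23 of 30 windows, or 76.7%, and in 35.7% of all windows. These matches describe letters in the windows only.

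**Figure D4:**
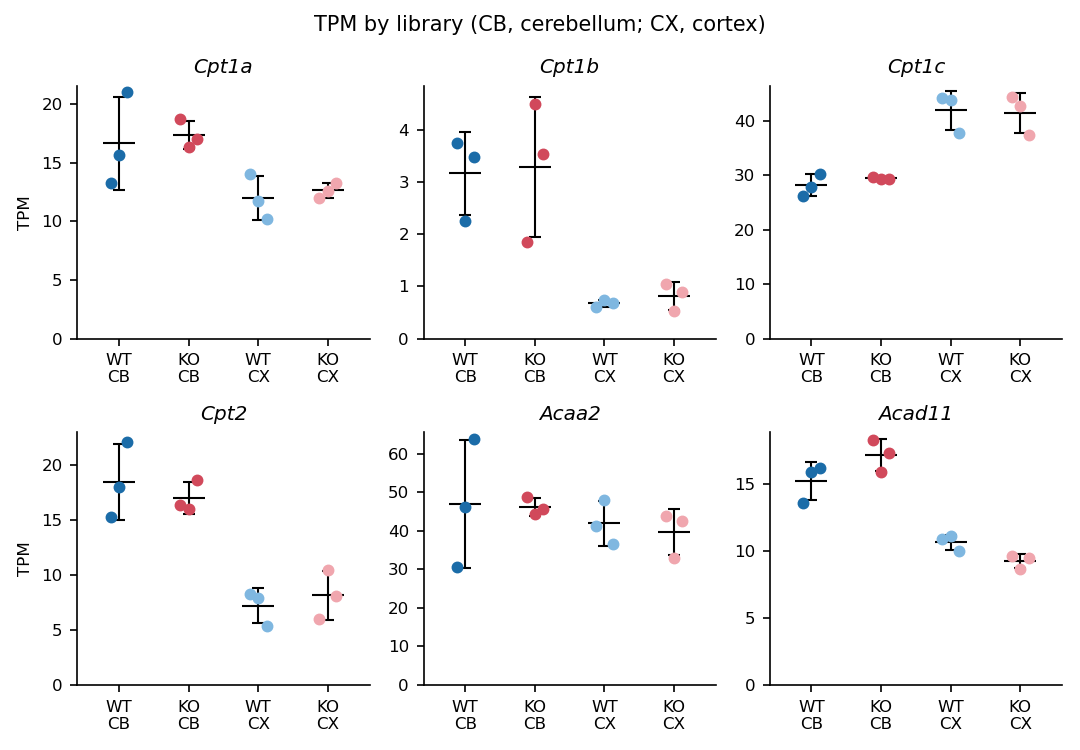
TPM of 6 genes in the 12 libraries, with 1 point per library, the mean as a bar and the SD as whiskers (n = 3 per group; CB, cerebellum; CX, cortex). *Cpt1b* and *Cpt2* are higher in cerebellum, *Cpt1c* is higher in cortex, *Acaa2* spreads from 30.6 to 63.8 TPM in WT cerebella, and *Acad11* is lower in every KO cortex than in any WT cortex.

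The dehydrogenases that open each round were higher in cerebellum for long, medium and short chains alike. In WT mice the log2 difference was 0.67 ± 0.10 for *Acadl*, 0.66 ± 0.07 for *Acadvl*, 0.57 ± 0.08 for the medium-chain *Acadm* and 0.79 ± 0.18 for the short-chain *Acads*, all called by edgeR. *Acadm* stood at 43.6, 45.2 and 49.2 TPM in WT cerebella and 30.1, 31.5 and 27.3 in WT cortices, with the tissues apart. *Acad12* was called at 0.96 ± 0.20 and *Acad11* at 0.45 ± 0.09, while *Acad9*, which also serves the assembly of respiratory complex I, was at 0.13 ± 0.08 and was not called. *Acadsb*, which works on branched short chains from amino acids, was at 0.22 ± 0.10 and was not called in WT mice. Counting ignored strand, and 42.9% of the exon bases of *Acadvl* also lie in *Dvl2* on the opposite strand, so their reads cannot be told apart there. *Acad10* had the widest gap between the genotypes, at 0.07 ± 0.29 in WT and 0.63 ± 0.26 in *Snx14*-KO mice, was called in neither, and rested on 33 to 83 counts per library.

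The window of *Acadm* at chr3:153944594-153944893 (− strand, GRCm38.p6) is shown as an example from the dehydrogenases, the step in which *Acadvl* also held the element. Capitals mark the reverse complement of AGGTCA.
Acadm: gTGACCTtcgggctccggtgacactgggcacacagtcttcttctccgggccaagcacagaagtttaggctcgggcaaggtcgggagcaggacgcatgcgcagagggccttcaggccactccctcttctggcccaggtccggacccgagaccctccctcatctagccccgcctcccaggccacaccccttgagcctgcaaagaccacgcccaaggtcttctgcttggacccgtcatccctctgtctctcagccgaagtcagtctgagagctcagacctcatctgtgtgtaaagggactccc
The element began 249 bases before the RefSeq start, at the edge of the window.

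The trifunctional protein, which carries out hydration, oxidation and thiolysis of long chains, is made of subunits encoded by *Hadha* and *Hadhb*. *Hadha* stood at 44.6, 46.0 and 52.0 TPM in WT cerebella and 26.2, 27.6 and 25.6 in WT cortices. *Hadhb* stood at 50.9, 51.7 and 61.0 TPM in WT cerebella and 36.6, 37.7 and 31.6 in WT cortices. The tissues were apart for both, with log2 differences of 0.78 ± 0.07 and 0.56 ± 0.08, and the ratio of *Hadha* to *Hadhb* was 0.873 ± 0.0185 in WT cerebella and 0.753 ± 0.0499 in WT cortices. In *Snx14*-KO mice this ratio overlapped between the tissues, at 0.838 ± 0.0511 in cerebella and 0.811 ± 0.0714 in cortices. *Hadh*, the dehydrogenase for shorter hydroxyacyl chains, was at 0.57 ± 0.10 and *Echs1*, the short-chain hydratase, at 0.48 ± 0.07, both called. *Acat1*, a thiolase that also serves ketone bodies, was at 0.27 ± 0.08 (adjusted *P* = 0.0162, and 0.0656 to 0.0874 without WT cerebellum 2 or WT cortex 1 or 3), and *Acaa2*, the thiolase of the last step, was at 0.09 ± 0.21 and was not called.

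*Hadha* and *Hadhb* lie head to head on chromosome 5, at chr5:30118304-30155162 (− strand) and chr5:30155248-30184593 (+ strand), with their starts 86 bases apart. Their shared promoter is shown as the window of *Hadhb* at chr5:30155003-30155302, printed on the + strand, which also holds the start of *Hadha*. Capitals mark GGGCGG or its reverse complement.
Hadhb: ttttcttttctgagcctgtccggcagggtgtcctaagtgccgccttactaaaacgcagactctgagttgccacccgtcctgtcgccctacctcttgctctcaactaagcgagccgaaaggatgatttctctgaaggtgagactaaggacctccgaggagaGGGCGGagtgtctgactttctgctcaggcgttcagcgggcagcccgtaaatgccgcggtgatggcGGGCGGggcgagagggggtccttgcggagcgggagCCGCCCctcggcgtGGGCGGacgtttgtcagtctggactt
It held no AGGTCA and was 60.7% G or C.

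All 3 auxiliary enzymes for unsaturated chains and all 3 electron transfer genes were called higher in WT cerebella, where 28.2% of all genes tested were. *Eci1*, the main enoyl-CoA isomerase, was at 48.2, 49.8 and 48.9 TPM in WT cerebella and 20.8, 25.3 and 23.3 in WT cortices, a log2 difference of 1.02 ± 0.10 (adjusted *P* = 1.18e-05). *Decr1*, the dienoyl-CoA reductase of mitochondria, was at 0.71 ± 0.10 and *Eci2*, an isomerase found in mitochondria and peroxisomes, at 0.29 ± 0.10, a call that was lost without WT cerebellum 1 or 2 or WT cortex 1 or 3 (adjusted *P* 0.0600 to 0.130). *Etfa* was at 128, 134 and 144 TPM in WT cerebella and 55.0, 62.8 and 53.0 in WT cortices. Its log2 difference, 1.19 ± 0.08 in WT mice (adjusted *P* = 6.62e-07) and 1.03 ± 0.10 in *Snx14*-KO mice (adjusted *P* = 1.46e-05), came to 2.28-fold and 2.04-fold. *Etfb* was at 0.70 ± 0.08 and *Etfdh* at 0.60 ± 0.09 in WT mice, and 58.2% of the exon bases of *Etfb* are shared with other genes, mostly *Gm45233*.

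Of the 6 peroxisomal genes 1 was called between the WT tissues and 2 between the KO tissues, which with so few genes is near the 28.2% and 25.5% of all genes tested that were called higher. *Hsd17b4* was at 80.8, 79.5 and 85.0 TPM in WT cerebella and 56.5, 52.7 and 56.9 in WT cortices, a log2 difference of 0.50 ± 0.06 (adjusted *P* = 5.07e-05), and was called in *Snx14*-KO mice too at 0.42 ± 0.07. *Crot*, which makes acylcarnitines of the shortened chains, was at −0.18 ± 0.11, *Acox3*, an oxidase for branched chains, at −0.07 ± 0.08, and *Decr2*, the peroxisomal reductase, at −0.12 ± 0.09, none of them called. *Acaa1a*, the peroxisomal thiolase, was at 0.17 ± 0.07 in WT mice (not called) and 0.23 ± 0.08 in *Snx14*-KO mice (adjusted *P* = 0.0317, 0.0532 when the mice were paired), and reads of its close copy *Acaa1b* may be split between them. *Ehhadh*, the bifunctional enzyme of straight chains, had 53 to 127 counts per library and was called in neither genotype. Of the regulators, *Ppargc1a* was called at 0.32 ± 0.08 in WT and 0.36 ± 0.10 in *Snx14*-KO mice, and *Mlycd* and *Ppara* were not called.

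With the size that the study asked of a DEG added, 18 of 37 genes passed in WT mice, 17 of them higher in cerebellum, where 19.0% of all genes tested were called and over 0.50 higher. In *Snx14*-KO mice 19 passed, 18 of them higher, where 18.2% of all genes tested did so.

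WT cerebella differed among themselves in the level of these genes. Of the 37 genes, 28 were highest in WT cerebellum 3, which had the highest choroid plexus marker level, as were 43.7% of all genes tested, and 20 (54.1%) followed the order of the marker level over the 3 libraries, where 22.6% of all genes tested did so. *Acaa2* was the widest case, with 30.6, 46.2 and 63.8 TPM in WT cerebella 1, 2 and 3. The part of choroid plexus in these values was not tested. Without WT cerebellum 3 the tissue comparison called 23 genes higher in cerebellum with a median log2 difference of 0.43, and without WT cerebellum 1 it called 24 with a median of 0.53. Glial and meningeal markers differed between the WT tissues too. Over all genes tested, 28.2% were called higher and 29.2% lower in WT cerebella. Of 11 astrocyte and Bergmann glia markers 8 were called higher and 2 lower in cerebellum (summed level 6263 to 6502 TPM against 2659 to 2996 in cortices). Of 10 oligodendrocyte markers 7 were called higher (6686 to 8358 TPM against 4664 to 4908), and all 12 microglia and macrophage markers were called lower (433 to 544 TPM against 863 to 960). Of 11 meningeal fibroblast markers 7 were called higher (95.2 to 208 TPM against 57.9 to 92.3). In *Snx14*-KO mice 8 astrocyte and Bergmann glia markers were called higher and 1 lower, 8 oligodendrocyte and 7 meningeal fibroblast markers were called higher, and 4 of 12 microglia and macrophage markers were called lower. Among all genes tested in these mice, 25.5% were called higher and 26.6% lower in cerebellum. The part of these lists was not tested.

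Neighbouring genes of fatty acid handling were read from 7 further lists of 46 genes. In cerebellum 43 could be tested between genotypes, none was called by edgeR, and 4 had an unadjusted *P* under 0.05, a share near the 8.15% of all genes tested: *Acsbg1*, a glial acyl-CoA synthetase, at 0.18, *Acot11*, a thioesterase, at 0.15, *Rxra*, the partner receptor of PPARα, at 0.37 and *Fabp3*, a fatty acid binding protein, at −0.26 on the log2 scale. In cortex 44 could be tested, none was called by edgeR, and 2 had an unadjusted *P* under 0.05, near the 4.5% of all genes tested: *Ucp2*, an uncoupling protein, at 0.61 and *Bdh1*, a ketone body dehydrogenase, at 0.17. Between WT tissues 28 of 44 were called, 21 higher and 7 lower in cerebellum, where 28.2% of all genes tested were called higher and 29.2% lower, with a median log2 difference of 0.24.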

How the data were processed

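Bulk RNA-Seq of 12 mouse libraries was used, in 4 groups of 3 set by the sample titles. The authors trimmed reads, mapped them to GRCm38 with STAR v2.7.3a and deposited raw counts per gene from featureCounts v2.0.1, run without a strand setting and with each read pair counted for every gene it overlapped. The exon length deposited beside the counts was used for TPM. Of 81881 features, 26345 outside the GENCODE vM21 genes (0.0506% to 0.0632% of counts) were left out. The study names a strand-specific library, the labels a kit without that mark. The study names GENEWIZ or Novogene as sequencing providers and Illumina HiSeq or Novoseq as platforms, and which library went to which is not given in the sources used here, so no batch could be checked.

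Each comparison was fitted with edgeR 4.0.16 on its own libraries (the interaction on all 12) with TMM scaling, its filter on low counts and Benjamini-Hochberg adjustment over all genes tested, after a test on simulated data. Intervals are 95% from an SE derived from the log2 value and its F statistic, with the total degrees of freedom of edgeR. That total adds prior degrees of freedom, shared over genes, to the residual ones. SE marks those of log2 differences. Alternatives were DESeq2 1.42.0, RLE scaling, no filter, a size threshold of 0.50, leaving out each library, a replicate block and 1 fit of all libraries. The genes, lists and marker lists were chosen with earlier results of these data known. Named were *Snx14*, the shuttle core and genes with an unadjusted *P* under 0.05 for genotype, called genes over 0.50 and the CPT1 family for tissue, and the highest and lowest levels; other genes were named to account for all 37 and were chosen after their values were seen. *P* values measure the spread between these mice.

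Mouse numbers were taken to pair the tissues, since the titles number the mice alike in both, which is not stated further. Deviations of same-numbered libraries from their group means correlated at 0.104, 0.104 and 0.0765 in WT and 0.288, 0.0301 and 0.0826 in *Snx14*-KO mice, and those of different numbers at −0.0982 to 0.000397 and −0.212 to 0.132. Promoter windows came from RefSeq (GRCm38.p6), with no entry used for 7 of the 37 genes.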

Additional observations from a re-analysis of the deposited data

How the results depend on the processing

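The number of genes of the set called between genotypes, and in the interaction, was 0 under every alternative run, although the calls over all genes in cerebellum rose from 1 to 216 with DESeq2, 389 without the filter, 50 in 1 fit of all libraries and 264 without *Snx14*-KO cerebellum 2. In cortex they rose from 1 to 15 with DESeq2 and 218 without the filter, and in the interaction from 0 to 35, 418 and, without *Snx14*-KO cerebellum 2, 257. The median over the set ranged from −0.0416 to 0.0437 for cerebellum and from −0.0593 to 0.0360 for cortex. Single shuttle genes near 0 changed sign when libraries were left out, none of them called: in cerebellum *Cpt1a* (−0.0775 to 0.23), *Cpt1b* (−0.27 to 0.35) and *Slc25a20* (−0.0739 to 0.13), and in cortex *Cpt1a* (−0.0216 to 0.17), *Cpt1c* (−0.0801 to 0.0429), *Cpt2* (−0.0357 to 0.35), *Slc25a20* (−0.19 to 0.0721) and *Crat* (−0.0471 to 0.0171). The replicate block turned *Slc25a20* in cerebellum to 0.00766.

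Genes called between tissues numbered 22 to 25 in WT and 25 to 27 in *Snx14*-KO mice with libraries left out, 24 and 25 with DESeq2, 25 and 26 with RLE scaling, 26 and 25 without the filter, and 24 and 25 with the replicate block, which changed no other call than those of *Cpt1a* and *Acaa1a*. The medians ranged from 0.43 to 0.53 in WT and from 0.46 to 0.54 in *Snx14*-KO mice. Of the 25 WT calls, 21 passed in every fit with a library left out, and of the 26 KO calls, 25 did, *Acaa1a* being the exception (adjusted *P* 0.0510 to 0.112 in 5 fits). Between genotypes the numbers are shared by different mice: same-numbered libraries correlated at 0.0740, 0.0220 and 0.00117 in cerebellum and 0.116, −0.0332 and 0.0502 in cortex, and the replicate block left 0 calls in the set. *Cpt1b*, *Acad10* and *Ppara*, under 100 counts in every library, were among the genes with the widest intervals. In cerebellum *Ehhadh*, with up to 127 counts, and *Acaa2*, with 256 to 526 in WT, had wide ones too.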

Other observations

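Several neighbouring genes of fatty acid handling also differed between the tissues. *Bbox1*, the last enzyme of carnitine synthesis, was at 8.99 TPM (mean, n = 3) in WT cerebella and 0.899 in WT cortices, a log2 difference of 3.25 in WT and 3.43 in *Snx14*-KO mice. *Slc22a4*, an organic cation transporter, was at 55.8 TPM in WT cerebella and 6.44 in WT cortices (3.05 and 2.85). *Acacb*, which makes malonyl-CoA at mitochondria, was higher in cerebellum by 2.09 and 1.80, while *Acsl5* and *Acsl4*, acyl-CoA synthetases, were lower, at −2.75 and −1.20, in WT mice. All were called by edgeR in both genotypes. These genes were named after their values were seen.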
